A study of Mus musculus with 32 samples.

Results

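Cerebral cortex of mice 8 h after reperfusion was compared with cortex of sham-operated mice. The 4 arrays titled as cortex at 8 h of ischaemia and reperfusion were set against the 4 arrays titled as sham cortex, 8 of the 32 arrays of the study, and every gene measured above background was taken into account. The study measured messenger RNA on bead arrays in male wild-type C57BL/6J mice of 8 to 10 weeks in which a middle cerebral artery was closed with a suture for 2 h and then reopened, a model of stroke with return of blood flow. Mice of the 8 h group were killed 8 h after the suture was withdrawn. Sham mice had anaesthesia and a neck incision without a suture, and the labels name neither a time after surgery for this group nor the second anaesthesia at which the suture was withdrawn, so time since surgery, anaesthesia and ischaemia cannot be told apart in this comparison. Both groups carry the same tissue label, which calls the sham tissue infarct cortex as well, and the pieces were taken from the right side. Further groups of the same design were cortex at 2 h and 24 h and the striatum at the same times, with 4 arrays each.

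Ischaemia stops the supply of oxygen and glucose, and reperfusion brings back oxygen, leukocytes and serum factors to damaged tissue. In the hours after reperfusion, microglia, endothelial cells and astrocytes are known to make chemokines, adhesion molecules and acute-phase proteins, while stress hormones from the adrenal gland act on the brain through the glucocorticoid receptor. The vessel wall of the brain, the blood-brain barrier, loses part of its tight junctions and transporters in this period.

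Median probe signals of the 8 arrays ran from 70.0 to 88.7 intensity units, 49.8% to 52.3% of the probes were detected on an array, and the median number of beads behind a value was 33 to 39. Normalised log2 levels of the 9566 genes tested correlated at 0.9769 to 0.9905 among the 8 h arrays and at 0.9884 to 0.9947 among the sham arrays. The labels do not say that replicates came from separate mice, so p-values measure the spread between these samples. All 8 h arrays lay at slide position G and all sham arrays at positions A or E, so position and group cannot be told apart. Markers of cortical neurons were present in both groups: Slc17a7, the vesicular glutamate transporter of cortical excitatory cells, Cux2 and Tbr1 were measured, while Neurod6, Snap25 and Nefl were not detected on any of the 8 arrays. Markers of striatal projection neurons, among them Ppp1r1b, Drd1, Drd2, Pde10a and Rgs9, were also measured in these cortex pieces. The 6 striatal markers on the array summed to between 2380.5 and 5955 normalised intensity units in the 8 h arrays and between 5167.5 and 6451 in the sham arrays.

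Of the 9566 genes tested, 676 (7.07%) differed between the 8 h and the sham arrays at an adjusted p under 0.05 (limma, Benjamini-Hochberg adjustment). Of these, 353 (3.69%) were higher and 323 (3.38%) lower at 8 h. A change of 2-fold or more was seen for 54 of the higher and 18 of the lower genes. The median log2 difference over all genes tested was -0.01. Levels of the 4 arrays of one group all lay on one side of the 4 of the other for 327 of the higher and 294 of the lower genes, and the same was true of 8.27% (above) and 8.15% (below) of all genes tested. A second scaling, by the median of each array, gave 228 higher and 124 lower genes, so the balance of rises and falls depends on the scaling. The count was 327, 360 and 264 without 8 h replicates 1, 2 and 3, and 252, 261 and 422 without sham replicates 1, 2 and 3. It was 874 without 8 h replicate 4 and 599 without sham replicate 4. Slides 1, 3 and 4 held arrays of both groups. Within them 97.7%, 99.4% and 99.7% of the higher genes and 97.5%, 99.7% and 100% of the lower genes kept their direction. These genes were called on the same arrays, so their direction within a slide is not independent of the call. Of the 104 genes named in the text that passed, 52 kept an adjusted p under 0.05 with each of the 8 arrays left out in turn and 52 lost it without at least 1 of them. Of the 104, 47 did not pass in the submitters' processed value table. There the fit related the spread of a gene to its mean ratio and not to its intensity. The part of this in the losses was not tested. Of the 94 that the deposited gene-level table holds, 22 did not pass there, and the log2 difference of 43 was smaller by more than 1.5 times.

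The gene with the highest rise was Ccl4, a chemokine that draws monocytes and T cells. Its log2 normalised intensities were 12.13, 10.20, 11.79 and 6.81 in 8 h replicates 1 to 4, against 4.71, 4.84, 4.64 and 4.65 in sham replicates 1 to 4. Every 8 h array lay above every sham array, with 8 h replicate 4 nearest to sham. Ccl4 was not detected in sham, and a fold against such a group is given as a bound, with the lowest signal of any detected probe in place of the sham signal. It was at least 29.9-fold higher at 8 h (means 10.23 and 4.71, adjusted p = 0.00425, limma). Ccl3, which acts through some of the same receptors, had 10.60, 8.68, 10.19 and 5.71 in the 8 h arrays, against 4.56, 4.57, 4.69 and 4.60 in the sham arrays, where it was not detected, and was at least 11.0-fold higher (means 8.79 and 4.61, adjusted p = 0.0112). Cxcl1, an attractant of neutrophils, had 9.50, 8.53, 9.62 and 6.80 at 8 h, against 4.76, 4.70, 4.67 and 4.85 in sham, and was at least 9.71-fold higher (means 8.61 and 4.74, adjusted p = 0.0137). The order of the arrays was alike in these chemokines: replicates 1 and 3 were highest, replicate 2 lay between and replicate 4 was lowest. Ccl9, a chemokine of mice that binds Ccr1, was detected in both groups and rose by 3.38 ± 0.75 on the log2 scale (SE, adjusted p = 0.0135). Without 8 h replicate 3 the adjusted p was 0.0525 for Cxcl1 and 0.0537 for Ccl9, while Ccl4 and Ccl3 passed without any single array. In the submitters' processed value table, Ccl4, Ccl3 and Cxcl1 did not pass, with log2 differences of 4.47, 3.29 and 2.88 (adjusted p = 0.837, 0.242 and 0.0805). Without background correction they passed with differences of similar size, 4.54, 3.35 and 2.93 (limma, adjusted p = 0.00804, 0.0134 and 0.0192).

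Ccl17, a ligand of Ccr4, showed less spread. It had 7.01, 7.29, 7.08 and 6.79 in the 8 h arrays, against 5.24, 5.11, 4.76 and 5.07 in the sham arrays, and was at least 3.27-fold higher than in sham, where it was not detected (means 7.04 and 5.04, adjusted p = 2.51e-05). Cxcl12, a chemokine that vessel and stromal cells make in the resting brain, fell. Its levels were 7.98, 7.98, 8.11 and 7.76 at 8 h, against 8.75, 9.02, 9.47 and 8.99 in sham, a log2 difference of -1.10 ± 0.16 (SE, adjusted p = 0.00115). That is the brightest of 3 probes of Cxcl12, the differences ran from -1.10 to -0.13, and it alone passed. Of the 14 chemokine ligands tested, 5 rose and 2 fell (Cxcl12 and the skin-homing chemokine Ccl27a), against 3.69% of all genes that rose and 3.38% that fell, with a median log2 difference of 1.28. The adjusted p of Ccl27a was 0.0355, and 0.0556 with slide as a block. A second probe of Ccl27a had a difference of -0.32 and did not pass. Ccl12 and Ccl11 lay above sham on all 4 arrays without passing the test (adjusted p = 0.0801 and 0.097). The log2 difference of Ccl12 was 1.63 ± 0.55, and Ccl11 exceeded its sham level, which was not above background, at least 2.02-fold. Among the 27 chemokines listed, 6 were not detected on any of the 8 arrays, among them Cxcl5, Cxcl9 and Cxcl13.

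**Figure D1:**
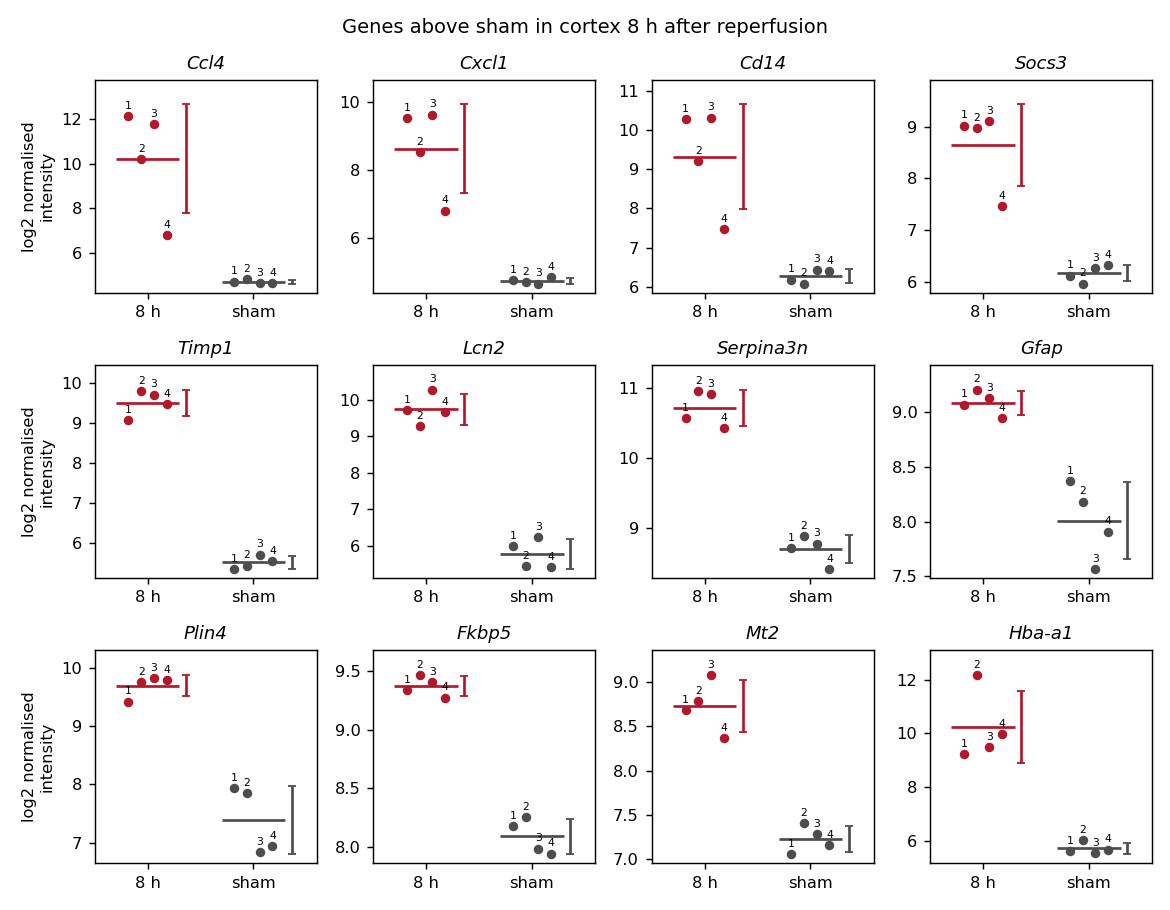
Log2 normalised intensity (y axis) of 12 genes that were above sham, with the 4 cortex 8 h arrays in red on the left and the 4 sham arrays in grey on the right of each panel, numbered by replicate. Horizontal lines are group means and bars show 1 SD on each side of the mean. Replicate 4 lies lowest of the 8 h arrays for Ccl4, Cxcl1, Cd14, Socs3, Serpina3n, Gfap, Fkbp5 and Mt2. For Timp1, Lcn2, Plin4 and Hba-a1 another 8 h array is lowest.

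Innate receptors and inhibitors of NF-kB signalling, the pathway that switches on many inflammatory genes, were raised in part. Cd14, a co-receptor for bacterial lipopolysaccharide, had 10.28, 9.22, 10.32 and 7.47 at 8 h, against 6.18, 6.08, 6.44 and 6.39 in sham (log2 difference 3.05 ± 0.76, adjusted p = 0.0237). Tlr2, a receptor for microbial lipoproteins, had 7.72, 7.20, 7.44 and 5.86 at 8 h, against 4.97, 5.35, 5.12 and 5.27 in sham (1.88 ± 0.46, adjusted p = 0.0218). Neither gene overlapped between the groups, as was true of 327 of the 353 higher genes. In both the lowest 8 h array was replicate 4. Tlr2 was detected on 1 of the 4 sham arrays, so its difference rests on sham values near background. Nfkbiz, a nuclear co-factor of NF-kB, and Icam1, the adhesion molecule to which leukocytes bind, rose by 1.13 ± 0.34 and 1.12 ± 0.33 on the log2 scale (adjusted p = 0.0492 and 0.0482). With Nfkbib, 5 of 13 tested members of this list rose and none fell, against 3.69% of all genes that rose, and their median log2 difference was 0.41. The adjusted p of Nfkbib was 0.0427, and 0.0731 with slide as a block and 0.0722 over the 8 compared arrays alone, and its difference within slide 1 was -0.03. All 5 had replicate 4 as the 8 h array nearest to sham. Each lost its call without 8 h replicate 1, 2 or 3 or sham replicate 1 or 2, with the highest adjusted p between 0.0733 (Tlr2) and 0.159 (Nfkbiz), both without 8 h replicate 3. In the interleukin 6 family, Socs3, the feedback inhibitor of cytokine receptors that signal through STAT proteins, had 9.02, 8.98, 9.11 and 7.46 at 8 h, against 6.11, 5.96, 6.27 and 6.31 in sham (2.48 ± 0.59, adjusted p = 0.0183, and 0.0629 without 8 h replicate 3). Osmr, the receptor of oncostatin M, rose by 1.81 ± 0.32 (adjusted p = 0.00425), and the other 6 tested members of that family did not pass. Il1b was not detected in sham and had 7.26, 6.32, 6.91 and 5.36 at 8 h, but its adjusted p was 0.0883 (at least 2.19-fold higher, means 6.46 and 4.97). Il6, Tnf and Ccl2 did not meet the detection rule in any cortex group and were not tested.

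Several genes of myeloid cells were among the 15 rises with the largest log2 change. Gpr84, a receptor of medium-chain fatty acids on myeloid cells, was at least 4.21-fold higher than in sham, where it was not detected (means 7.41 and 4.66, adjusted p = 0.00131). Lgals3, the lectin galectin-3 of activated macrophages and microglia, rose by 2.96 ± 0.63 (adjusted p = 0.0103, and 0.0548 in the submitters' processed value table), and Ms4a6d, a membrane protein of myeloid cells, rose by 2.37 ± 0.49 (adjusted p = 0.00899). Ms4a6d had 8.38, 8.94, 8.77 and 8.71 at 8 h, against 6.12, 6.21, 6.42 and 6.54 in sham, so its 8 h arrays lay close together. Ch25h, which makes 25-hydroxycholesterol, rose by 2.32 ± 0.54 (adjusted p = 0.0178, and 0.0659 without 8 h replicate 3), with 2 of the 4 sham arrays detecting it. Of the 11 tested genes listed for monocytes and macrophages, Lgals3 alone passed, against 3.69% of all genes that rose. In tissue pieces such as these, fewer cells of a type and less RNA per cell cannot be told apart, and the same holds for more cells and more RNA.

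Markers of blood and leukocytes were measured as well. Hba-a1, the alpha chain of haemoglobin, had 9.24, 12.18, 9.50 and 9.99 at 8 h, against 5.65, 6.05, 5.57 and 5.70 in sham, a log2 difference of 4.48 ± 0.84 (adjusted p = 0.0056). Its probe may also read the near-identical second alpha gene. Of the 5 tested blood and erythroid genes, Hba-a1 rose and Slc25a37, an iron importer of mitochondria, fell (-0.50 ± 0.14, adjusted p = 0.0376), and the median was -0.17. Over all genes tested, 3.69% rose and 3.38% fell. The adjusted p of Slc25a37 was 0.0606 with slide as a block and reached 0.133 without sham replicate 2, and that of Hba-a1 was 0.442 in the submitters' processed value table. The log2 difference of Hba-a1 was 3.76 there and 3.77 without background correction, where its adjusted p was 0.0115 (limma). The 3 blood markers on the array summed to 657 to 4695 normalised intensity units in the 8 h arrays and to 97.2 to 115 in the sham arrays, with 8 h replicate 2 the highest, while the erythroid markers Alas2 and Slc4a1 were not detected on any of the 8 arrays. The 5 neutrophil markers on the array summed to 229 to 555 at 8 h and 129 to 149 in sham, and the 4 monocyte and macrophage markers to 321 to 454 at 8 h and 262 to 393 in sham, where the groups overlapped. Of the 4 tested neutrophil genes, Lcn2 alone passed, against 3.69% of all genes that rose. S100a8, a calcium-binding alarmin of neutrophils, had 6.83, 8.37, 6.68 and 7.06 at 8 h, against 4.72, 4.59, 5.64 and 4.60 in sham, and did not pass (log2 difference 2.35 ± 0.94, adjusted p = 0.139, detected on 1 of the 4 sham arrays). The neutrophil markers Cxcr2 and Retnlg and the monocyte markers Ccr2 and Ms4a7 were not detected. The part of blood or of leukocytes in the rises above was not tested.

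**Figure D2:**
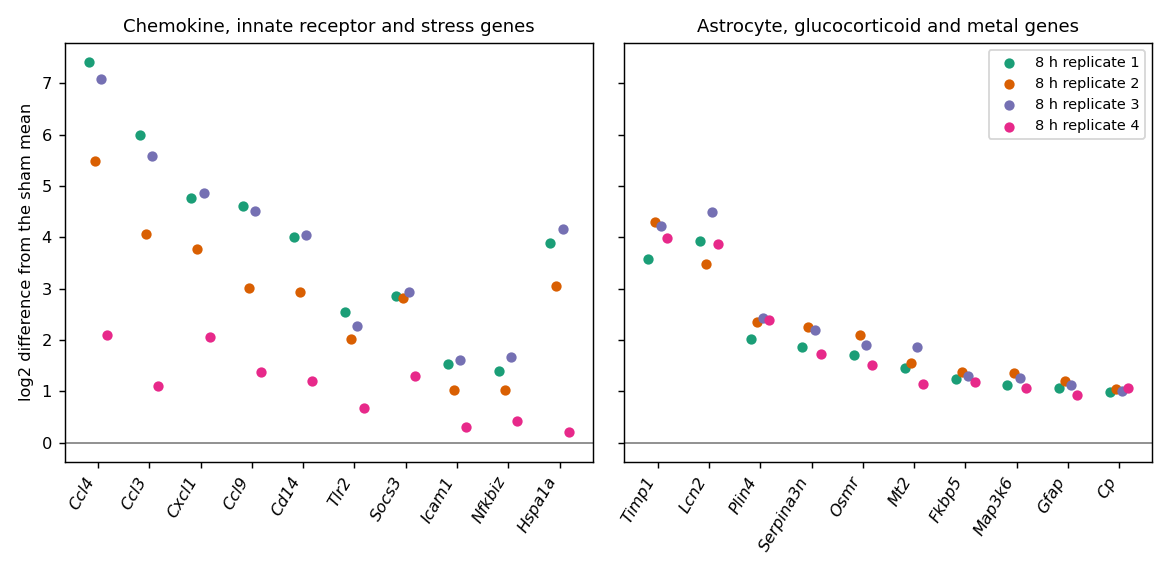
Log2 difference of each cortex 8 h array from the mean of the 4 sham arrays (y axis) for 20 genes (x axis), with 1 colour for each 8 h replicate. The genes were chosen after their values were seen. In the left panel replicate 4 lies below the other 3 for all 10 genes, and in the right panel the 4 replicates lie closer together.

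The 8 h arrays differed among themselves. Over the 353 higher genes, replicate 4 was the array nearest to sham for 202, and its median log2 difference from the sham mean was 0.39, against 0.53, 0.50 and 0.57 for replicates 1 to 3. Over the 323 lower genes it was the nearest for 163, with a median of -0.35, against -0.52, -0.47 and -0.50. Genes differed in this respect. Replicate 4 was nearest to sham for all 5 chemokines that rose, whose median difference was 1.75 in replicate 4 and 4.76, 3.78 and 4.87 in replicates 1 to 3. It was nearest for 4 of the 7 glucocorticoid-responsive genes that rose, with a median of 1.18 in replicate 4 and 1.46, 1.54 and 1.81 in the others. Among the 5 microglial genes that fell, replicate 1 was nearest to sham for all 5. No label sets replicate 4 apart, and no array was left out of the values given here.

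Genes of reactive astrocytes, the state that astrocytes take on after injury, made up the list with the most rises. Of 15 tested, 8 rose and none fell, against 3.69% of all genes that rose, with a median log2 difference of 1.25, and all 15 had a positive difference. Timp1, an inhibitor of matrix metalloproteinases, had 9.07, 9.80, 9.72 and 9.48 at 8 h, against 5.34, 5.42, 5.70 and 5.54 in sham (log2 difference 4.02 ± 0.58, adjusted p = 0.00123). Lcn2, a lipocalin that binds bacterial iron carriers, had 9.72, 9.27, 10.27 and 9.66 at 8 h, against 6.01, 5.45, 6.25 and 5.43 in sham (3.95 ± 0.48, adjusted p = 0.000446). The groups were far apart in both genes, and replicate 4 was not the lowest 8 h array in either. In the submitters' processed value table their adjusted p was 0.296 (Timp1) and 0.0694 (Lcn2). The log2 difference of Lcn2 was 3.25 there and also without background correction, where its adjusted p was 0.00108 (limma). Lcn2 is also made by neutrophils and stands in the neutrophil list too. Serpina3n, a secreted inhibitor of serine proteases, had 10.57, 10.96, 10.91 and 10.43 at 8 h, against 8.72, 8.89, 8.78 and 8.42 in sham (2.01 ± 0.41, adjusted p = 0.00888). Slc10a6, a transporter of sulphated steroids, was at least 3.01-fold higher than in sham, where it was not detected (means 6.92 and 4.68, adjusted p = 0.00877). Gfap, the intermediate filament of astrocytes, rose by 1.08 ± 0.28 (adjusted p = 0.0277, and 0.0808 without sham replicate 3), and Cp, the copper-carrying ferroxidase ceruloplasmin, rose by 1.03 ± 0.15 (adjusted p = 0.00115). Cp had 8.01, 8.06, 8.01 and 8.08 in the 8 h arrays, which lay close together, against 7.11, 6.91, 6.90 and 7.13 in sham.

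Astrocyte genes of the resting brain rose in part and by small amounts. Of 16 tested, 14 had a positive difference, with a median log2 difference of 0.24. Against 3.69% of all genes that rose, 4 of the 16 rose and none fell. They were Gjb6, a gap-junction protein of astrocytes (0.51 ± 0.08, adjusted p = 0.00131), Aldoc, an aldolase of astrocytes (0.33 ± 0.07, adjusted p = 0.008), Aldh1l1, an enzyme of folate metabolism (0.48 ± 0.11, adjusted p = 0.0153), and Cbs, which makes cystathionine (0.58 ± 0.14, adjusted p = 0.0207). All 8 h arrays lay above all sham arrays for each of the 4, as was true of 327 of the 353 higher genes. The highest adjusted p with 1 array left out was 0.063 for Aldh1l1 (8 h replicate 3) and 0.08 for Cbs (sham replicate 1). Aqp4, the water channel of astrocyte endfeet, had a log2 difference of -0.06 ± 0.12 (adjusted p = 0.791).

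Glucocorticoid-responsive genes formed the other large group of rises. Of 19 tested, 7 rose and none fell, against 3.69% of all genes that rose, and 18 had a positive difference, with a median of 0.34. Fkbp5, an Hsp90 co-chaperone that restrains the glucocorticoid receptor, had 9.34, 9.47, 9.40 and 9.27 at 8 h, against 8.18, 8.26, 7.99 and 7.95 in sham (log2 difference 1.28 ± 0.15, adjusted p = 0.000332). Plin4, a coat protein of lipid droplets, had 9.42, 9.75, 9.82 and 9.78 at 8 h, against 7.94, 7.85, 6.84 and 6.94 in sham (2.30 ± 0.31, adjusted p = 0.000878). In both genes the 8 h arrays spanned less than the gap between the groups. Map3k6, a stress kinase, had 7.85, 8.10, 7.99 and 7.81 at 8 h, against 6.54, 6.78, 6.86 and 6.74 in sham (1.21 ± 0.18, adjusted p = 0.00144). Cdkn1a, an inhibitor of the cell cycle that the p53 pathway also switches on, rose by 1.47 ± 0.36 (adjusted p = 0.0214, and 0.0733 without 8 h replicate 3). Lcn2 and the metallothionein Mt2 also stand in this list, and the sulphotransferase Sult1a1 was the last of the 7. Other classic members did not pass: Tsc22d3 had a log2 difference of 0.22 ± 0.10 (adjusted p = 0.182), Sgk1 of 0.11 ± 0.15 (adjusted p = 0.716) and Per1 of 0.21 ± 0.18 (adjusted p = 0.513).

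Promoter windows of 4 of these genes are printed because each holds the letters of a motif known for a factor of the pathways above. Each runs 5′ to 3′ on the gene's strand across the transcript start (RefSeq, GRCm38.p6), in lower case, with the match in capitals. For Cxcl1 (chr5:90890995-90891294, plus strand) the capitals mark the NF-kB type motif, GGGA, any base and TTTCC. For Map3k6 (chr4:133240568-133240867, plus strand), Serpina3n (chr12:104406458-104406757, plus strand) and Slc10a6 (chr5:103629354-103629653, minus strand) they mark the glucocorticoid receptor type motif, which is G, any base, ACA, 3 bases of any kind, TGT, any base and C. Both motifs were searched on both strands.
Cxcl1: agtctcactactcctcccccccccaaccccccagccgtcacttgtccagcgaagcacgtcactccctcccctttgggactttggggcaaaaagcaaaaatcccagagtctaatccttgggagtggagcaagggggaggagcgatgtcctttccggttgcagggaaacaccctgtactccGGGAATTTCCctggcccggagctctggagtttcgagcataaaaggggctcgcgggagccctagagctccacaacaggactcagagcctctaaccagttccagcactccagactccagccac
Map3k6: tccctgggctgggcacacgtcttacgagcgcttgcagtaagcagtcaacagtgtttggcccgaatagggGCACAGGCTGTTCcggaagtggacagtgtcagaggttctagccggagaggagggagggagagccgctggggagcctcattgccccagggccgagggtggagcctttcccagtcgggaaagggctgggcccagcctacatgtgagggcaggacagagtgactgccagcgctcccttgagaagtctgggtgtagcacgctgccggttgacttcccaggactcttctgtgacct
Serpina3n: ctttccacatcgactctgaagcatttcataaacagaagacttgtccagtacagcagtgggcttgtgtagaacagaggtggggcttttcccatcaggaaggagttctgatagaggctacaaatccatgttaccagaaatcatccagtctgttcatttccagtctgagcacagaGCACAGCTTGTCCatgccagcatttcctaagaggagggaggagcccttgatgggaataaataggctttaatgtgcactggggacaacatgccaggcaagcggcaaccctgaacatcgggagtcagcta
Slc10a6: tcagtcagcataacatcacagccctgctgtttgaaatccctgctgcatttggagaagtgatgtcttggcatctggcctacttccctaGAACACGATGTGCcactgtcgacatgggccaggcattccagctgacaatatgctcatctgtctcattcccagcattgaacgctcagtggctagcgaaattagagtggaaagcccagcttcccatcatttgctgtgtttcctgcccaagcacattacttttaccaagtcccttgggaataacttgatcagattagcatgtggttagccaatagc
The NF-kB type motif was held by 0.466% of the 27025 genes with a promoter window, by 4 of the 277 higher genes with one (Cxcl1, Eef2k, Lyzl4 and Slc6a12) and by 0 of the 257 lower genes. The glucocorticoid receptor type motif was held by 0.537% of all these genes, by 5 of the 277 higher genes (Amy1, Fam107a, Map3k6, Serpina3n and Slc10a6) and by 2 of the 257 lower genes (Eml1 and Rbms3). The windows of Fkbp5 and Plin4 did not hold these letters. A STAT type motif, TTCNNNGAA, was held by 9.75% of the higher, 8.56% of the lower and 8.29% of all tested genes with a window, and a metal response type motif, TGCGCNC, by 28.2%, 30.7% and 31.1%. A match describes the letters of the window and is not a binding site. The motifs and the windows printed were chosen after the values were seen.

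Metal, redox and endoplasmic reticulum stress genes rose in part, and the counts below stand against 3.69% of all genes that rose. Mt2, a metal-binding metallothionein, had 8.69, 8.79, 9.09 and 8.36 at 8 h, against 7.06, 7.41, 7.28 and 7.16 in sham (log2 difference 1.50 ± 0.30, adjusted p = 0.00832). Its paralogue Mt1 had a log2 difference of 0.05 ± 0.06 (adjusted p = 0.602), with levels of 14.19 to 14.31 at 8 h and 14.09 to 14.27 in sham, near the top of the scale of these arrays. With Cp, the iron-uptake receptor Tfrc and Mt3, 4 of 10 tested genes of metal handling rose and none fell. Of 17 antioxidant genes, 3 rose: Hmox1, the haem-degrading enzyme (2.16 ± 0.57, adjusted p = 0.0302), Srxn1, which repairs peroxiredoxins (0.81 ± 0.19, adjusted p = 0.0173), and Slc7a11, the cystine-glutamate exchanger (0.69 ± 0.19, adjusted p = 0.0386). Of 3 probes of Srxn1 only the brightest passed, and their differences ran from 0.68 to 0.81. Hmox1 had 7.49, 7.73, 7.67 and 6.98 at 8 h, against 5.36, 5.59, 5.16 and 5.12 in sham, where 2 of the 4 arrays detected it. Of 19 genes of endoplasmic reticulum stress and ATF4, 3 rose: Slc7a11, Chac1, which degrades glutathione (0.96 ± 0.22, adjusted p = 0.0173), and the transcription factor Cebpb (1.01 ± 0.29, adjusted p = 0.0412). Mt2 and Cp passed without any single array. With slide as a block the adjusted p of Mt3 was 0.0623. Without 8 h replicate 3 the adjusted p was 0.132 for Mt3, 0.0855 for Hmox1, 0.0679 for Srxn1, 0.0648 for Chac1 and 0.118 for Cebpb, and without sham replicate 2 it was 0.144 for Tfrc and 0.117 for Slc7a11.

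Heat shock and immediate early genes, which respond within an hour of a stimulus, gave few calls. Hspa1a, the inducible chaperone of its family, had 10.81, 9.97, 11.08 and 7.12 at 8 h, against 6.87, 6.71, 7.30 and 6.77 in sham. Its 8 h replicate 4 lay below the highest sham array, and the adjusted p was 0.0492 (log2 difference 2.83 ± 0.84), and 0.157 without 8 h replicate 3. Of 16 heat shock genes tested, Hspa1a rose and Chordc1, an Hsp90 co-chaperone, fell (-0.35 ± 0.09, adjusted p = 0.0292, and 0.0897 without sham replicate 1). Over all genes tested, 3.69% rose and 3.38% fell. None of the 6 AP-1 genes and none of the 13 Egr, Ier and other immediate early genes passed (limma), with 1 and 2 of them at an unadjusted p under 0.05. In the same fit 2247 of all 9566 genes tested had an unadjusted p under 0.05. Fos had 10.18, 9.61, 10.22 and 7.90 at 8 h, against 8.78, 8.79, 8.90 and 8.47 in sham (0.74 ± 0.62, adjusted p = 0.504). Atf3, a stress-induced transcription factor, had 8.16, 7.17, 8.13 and 4.94 at 8 h, against 4.73, 4.58, 4.89 and 4.65 in sham (means 7.10 and 4.71). It was not detected in sham, the bound is 3.40-fold and the adjusted p was 0.0822. Replicates 1 to 3 were above all sham arrays in both genes, while replicate 4 was below all of them for Fos and just above them for Atf3.

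**Figure D3:**
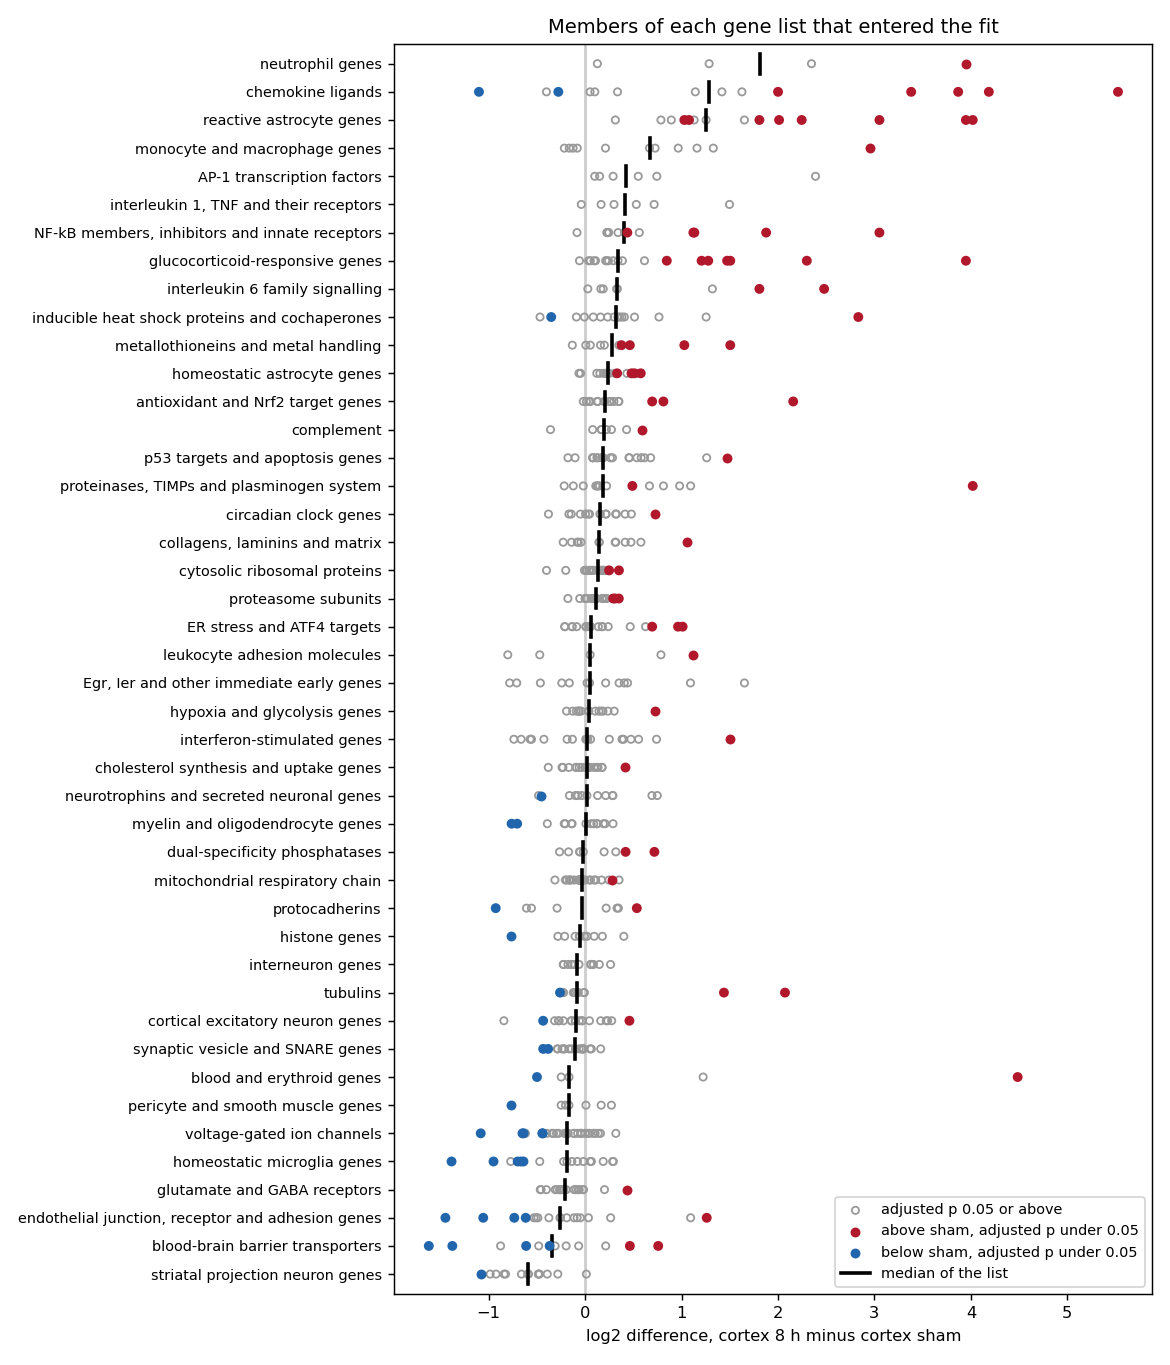
Log2 difference of cortex 8 h minus cortex sham (x axis) for each tested member of the gene lists with at least 4 tested members (y axis, ordered by the median, black bar). Filled red points rose and filled blue points fell at an adjusted p under 0.05. Open circles did not pass. The medians of chemokines, reactive astrocytes and glucocorticoid-responsive genes are 1.28, 1.25 and 0.34, and those of endothelial, transporter and striatal genes are -0.26, -0.34 and -0.59.

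Genes of the vessel wall were among the largest falls. Flt1, a receptor of vascular endothelial growth factor, had 7.91, 7.40, 7.96 and 7.57 at 8 h, against 9.17, 9.11, 9.28 and 9.07 in sham (log2 difference -1.45 ± 0.14, adjusted p = 2.51e-05). Ptprb, the endothelial phosphatase that acts on the receptor Tek, had 6.39, 5.75, 6.00 and 6.14 at 8 h, against 7.09, 7.38, 7.24 and 7.32 in sham (-1.19 ± 0.17, adjusted p = 0.00115). Tek itself, the angiopoietin receptor, had 5.62, 5.82, 5.35 and 5.82 at 8 h, against 6.42, 6.56, 7.10 and 6.75 in sham (-1.06 ± 0.17, adjusted p = 0.00202). None of these genes overlapped between the groups, as was true of 294 of the 323 lower genes. In the deposited gene-level table the difference was -0.40 for Ptprb and -0.24 for Tek, and both still passed. Cldn5, the main claudin of brain endothelial tight junctions, fell by 0.73 on the log2 scale (SE 0.16, adjusted p = 0.0141), and Vwf, the clotting factor stored in endothelium, fell by 0.62 (SE 0.14, adjusted p = 0.0178). Angpt2, a ligand of Tek that destabilises vessels, rose by 1.26 ± 0.37 (adjusted p = 0.0456). Flt1, Ptprb, Tek and Cldn5 passed without any single array, while the adjusted p was 0.0591 for Vwf without sham replicate 2 and 0.118 for Angpt2 without 8 h replicate 1. Of the 18 tested endothelial genes, 4 fell and Angpt2 rose, against 3.38% and 3.69% of all genes, with a median of -0.26. The endothelial markers on the array summed to 589 to 806 normalised intensity units at 8 h and to 1258 to 1555 in sham. Pecam1, a general endothelial marker, had a log2 difference of -0.08 ± 0.28 (adjusted p = 0.892), and Kdr was not detected.

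Transporters of the blood-brain barrier moved in both directions. Slc38a5, a glutamine transporter of brain endothelium, had 5.57, 4.76, 5.23 and 4.73 at 8 h, where 1 of the 4 arrays detected it, against 6.28, 6.49, 7.03 and 6.98 in sham (-1.62 ± 0.24, adjusted p = 0.00131). Its size rests on 8 h values near background and was -1.02 with an offset of 50 and -0.32 in the deposited gene-level table. Slc47a1, an exporter of organic cations, fell by 1.38 (SE 0.22, adjusted p = 0.00246), and by 0.26 in the deposited gene-level table. Slco2b1, an organic anion transporter, fell by 0.61 (SE 0.12, adjusted p = 0.00791), and Slc6a6, the taurine transporter, by 0.37 (SE 0.10, adjusted p = 0.0297, and 0.0893 without sham replicate 1). Mfsd2a, which carries lysophospholipids of polyunsaturated fatty acids into the brain, rose. It had 10.17, 10.19, 10.28 and 10.59 at 8 h, against 9.46, 9.66, 9.58 and 9.50 in sham (0.76 ± 0.14, adjusted p = 0.00539). Of 12 tested transporters, 4 fell and 2 rose, against 3.38% and 3.69% of all genes, with a median of -0.34. Slc2a1, the glucose transporter of the barrier, had a log2 difference of -0.07 ± 0.17 (adjusted p = 0.849). Rgs5, a regulator of G proteins in pericytes, was the single gene of 7 tested pericyte and muscle genes that passed (-0.76 ± 0.15, adjusted p = 0.00638), against 3.38% of all genes that fell. Among other falls were Itm2a, a membrane protein (-1.13 ± 0.18, adjusted p = 0.00237), Atp2a3, a calcium pump of the endoplasmic reticulum (-1.21 ± 0.18, adjusted p = 0.00131), Rasgrp3, an activator of Ras (-1.06 ± 0.17, adjusted p = 0.00246), and Ogn, the matrix protein osteoglycin (-1.05 ± 0.21, adjusted p = 0.008). Mmrn2, a matrix protein of endothelium, was not detected at 8 h and was at least 1.67-fold lower than in sham (means 5.08 and 6.04, adjusted p = 0.0126). Rad54b, a DNA repair helicase, was not detected at 8 h either and was at least 1.88-fold lower (means 5.15 and 6.21, adjusted p = 0.0015). Igf2bp3, an RNA-binding protein, Fam180a and the steroid dehydrogenase gene Hsd3b2 fell by 1.29, 1.12 and 1.07 (adjusted p = 0.00591, 0.0103 and 0.0111), and their groups did not overlap. Igf2bp3 was detected on 1 of the 4 8 h arrays. The adjusted p of Fam180a was 0.0522 in the submitters' processed value table.

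**Figure D4:**
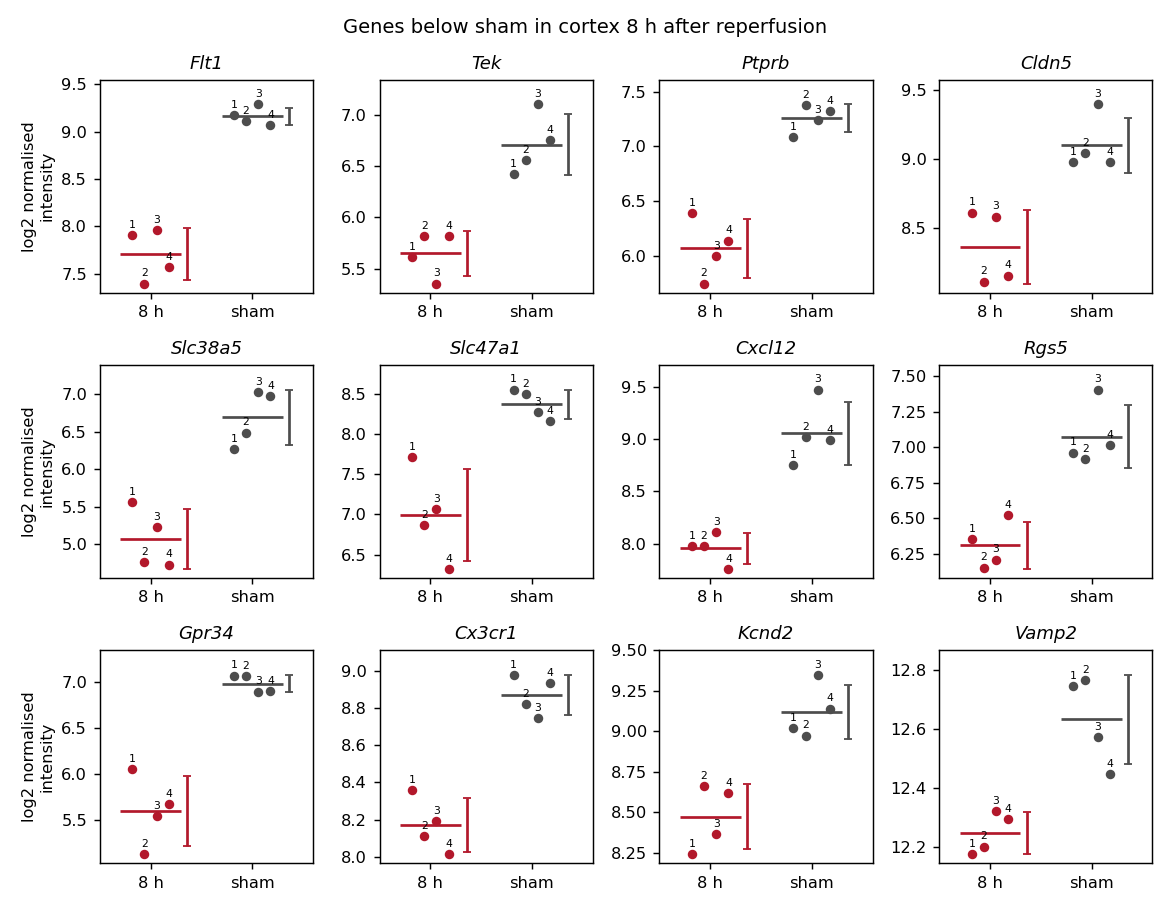
Log2 normalised intensity (y axis) of 12 genes that were below sham, with the 4 cortex 8 h arrays in red on the left and the 4 sham arrays in grey on the right of each panel, numbered by replicate. Horizontal lines are group means and bars show 1 SD on each side of the mean. In all 12 panels every 8 h array lies below every sham array, as for 294 of the 323 lower genes.

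Microglial genes of the resting brain fell in part. Gpr34, a lysophosphatidylserine receptor, had 6.05, 5.13, 5.54 and 5.67 at 8 h, against 7.07, 7.07, 6.90 and 6.91 in sham (log2 difference -1.39 ± 0.25, adjusted p = 0.00501, and -0.36 in the deposited gene-level table), and 3 of the 4 8 h arrays detected it. Cx3cr1, the fractalkine receptor, had 8.36, 8.11, 8.19 and 8.02 at 8 h, against 8.98, 8.82, 8.74 and 8.93 in sham (-0.70 ± 0.10, adjusted p = 0.00131). Neither gene overlapped between the groups, as was true of 294 of the 323 lower genes. Siglech, a sialic acid-binding lectin, fell by 0.95 (SE 0.18, adjusted p = 0.00681), Olfml3 by 0.67 (SE 0.16, adjusted p = 0.0196) and Aif1, which encodes the microglial protein Iba1, by 0.64 (SE 0.18, adjusted p = 0.0379). A second probe did not pass for Siglech (-0.42) and Aif1 (-0.47). Gpr34, Cx3cr1 and Siglech passed without any single array, while the adjusted p was 0.0753 for Olfml3 without 8 h replicate 3 and 0.113 for Aif1 without sham replicate 1. Of 17 tested, these 5 fell and none rose, against 3.38% of all genes that fell, with a median of -0.19. The 5 microglial markers summed to 659 to 813 normalised intensity units at 8 h and to 978 to 1232 in sham. P2ry12, the receptor by which resting microglia sense nucleotides, had 6.20, 5.92, 5.82 and 5.93 at 8 h, against 6.81, 6.92, 6.78 and 6.44 in sham, and did not pass (-0.77 ± 0.25, adjusted p = 0.0667). Tmem119 had a log2 difference of 0.06 ± 0.14 (adjusted p = 0.813). The complement gene C1qb, which microglia make, rose by 0.59 ± 0.17 (adjusted p = 0.0428, and 0.115 without 8 h replicate 3), the single call among 8 complement genes. Over all genes tested, 3.69% rose.

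Most neuronal genes tested did not pass. Of 32 tested voltage-gated channels, 5 fell and none rose, with a median of -0.18. Over all genes tested, 3.38% fell and 3.69% rose. Among the 5 is Scn4b, which also stands in the striatal list and is given with it below. Kcnd2, a channel of the dendritic A-type potassium current, had 8.24, 8.66, 8.37 and 8.62 at 8 h, against 9.02, 8.97, 9.35 and 9.14 in sham (log2 difference -0.65 ± 0.13, adjusted p = 0.00674). Scn2b, a sodium channel subunit, fell by 0.44 (SE 0.09, adjusted p = 0.00924), and Kcnc1, a channel of fast-spiking cells, also by 0.44 (SE 0.10, adjusted p = 0.0164, and 0.0624 without 8 h replicate 3), with a second probe at -0.24 that did not pass. Kcnh7, a potassium channel, was not detected at 8 h and was at least 1.17-fold lower (means 4.88 and 5.52, adjusted p = 0.0416, and 0.119 without 8 h replicate 3). Of 19 synaptic vesicle genes, the vesicle fusion proteins Vamp2 (-0.38 ± 0.08, adjusted p = 0.00899) and Vamp1 (-0.44 ± 0.12, adjusted p = 0.0351, and 0.0994 without sham replicate 2) fell and none rose. Of 4 probes of Vamp1 only this one passed, and their differences ran from -0.44 to 0.02. Of 18 glutamate and GABA receptor genes, Grik5, a kainate receptor subunit, rose (0.43 ± 0.11, adjusted p = 0.0247, and 0.0885 without sham replicate 2) and none fell. Syt1 and Rbfox3, general markers of neurons, had log2 differences of -0.02 ± 0.10 and -0.04 ± 0.10 (adjusted p = 0.91 and 0.859). None of 12 interneuron genes passed (limma), and 0 had an unadjusted p under 0.05, against 2247 of all 9566 genes tested. Of 19 cortical excitatory neuron genes, Nptx1, a synaptic pentraxin, rose (0.46 ± 0.11, adjusted p = 0.0184) and Bcl11b, a transcription factor of deep-layer neurons, fell (-0.44 ± 0.12, adjusted p = 0.0387), with adjusted p of 0.0699 for Nptx1 without sham replicate 2 and 0.118 for Bcl11b without 8 h replicate 1.

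Striatal projection neuron genes had the lowest median of all lists, -0.59. Of 14 tested, 1 passed, against 3.38% of all genes that fell. The gene that passed was Scn4b, a sodium channel subunit enriched in striatum. It had 10.05, 10.88, 9.43 and 8.80 at 8 h, against 10.80, 10.80, 10.98 and 10.92 in sham (-1.08 ± 0.32, adjusted p = 0.0482, and 0.142 without 8 h replicate 3), so 8 h replicate 2 lay within the sham range and replicate 4 was lowest. Drd2 had the same order, with 7.06, 7.56, 6.81 and 5.88, against 7.71, 7.52, 8.06 and 7.96 (-0.99 ± 0.32, adjusted p = 0.0692). Whether the share of striatum in the cortex pieces differed between arrays was not tested. Among the myelin genes, Ugt8a, which makes the galactolipids of myelin, fell (-0.76 ± 0.16, adjusted p = 0.00888), while Mbp had a log2 difference of 0.21 ± 0.08 (adjusted p = 0.112).

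In lists of basic cell functions most genes did not pass. Against 3.69% of all genes that rose, of 23 ribosomal proteins 2 rose (Rps3 and Rpl22), of 24 genes of the respiratory chain 1 rose (Ndufa2), and of 22 proteasome subunits 3 rose (Psmb3, Psma4 and Psma7), with medians of 0.14, -0.03 and 0.12. A second probe of Rps3 had a difference of 0.04, against 0.35 for the probe that passed, and Psma7 and Rpl22 had adjusted p of 0.0556 and 0.0636 with slide as a block. Of 17 hypoxia and glycolysis genes, Hk2, a hexokinase, alone passed (0.72 ± 0.21, adjusted p = 0.0421), and Vegfa had a log2 difference of -0.13 ± 0.20 (adjusted p = 0.747). Of 18 interferon-stimulated genes, the GTPase gene Gbp2 alone passed (1.51 ± 0.39, adjusted p = 0.0269). Of 16 clock genes, Per3 alone passed (0.72 ± 0.16, adjusted p = 0.014), and of 19 cholesterol genes, Pmvk alone. Of 12 tubulins, Tubb6 (2.07 ± 0.60, adjusted p = 0.0449, detected on 3 of the 4 sham arrays) and Tuba1c (1.44 ± 0.40, adjusted p = 0.0403) rose and Tubb5 fell (-0.26 ± 0.08, adjusted p = 0.0452). Of the genes named in this group only Psmb3 passed with each array left out in turn. The adjusted p reached 0.144 for Psma7, 0.135 for Hk2, 0.133 for Rpl22, 0.125 for Pmvk, 0.0879 for Ndufa2, 0.0666 for Psma4 and 0.053 for Per3 without sham replicate 2, 0.137 for Tubb5 and 0.11 for Tuba1c without 8 h replicate 3, 0.131 for Tubb6 and 0.0972 for Rps3 without 8 h replicate 1, and 0.0825 for Gbp2 without 8 h replicate 2.

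The 8 h arrays were next set against those of the earlier and later times. These comparisons share the 8 h arrays with the comparison with sham, so their values are given side by side and not as independent results. Of 9566 genes, 65 (0.679%) differed between 8 h and 2 h, 33 of them higher (0.345%) and 32 lower (0.335%) at 8 h, and 642 (6.71%) differed between 24 h and 8 h, 312 higher (3.26%) and 330 lower (3.45%) at 24 h. Among the 353 genes above sham at 8 h, 27 were also above 2 h, and 69 were lower and 3 higher at 24 h than at 8 h. Among the 323 genes below sham, 16 were also below 2 h, and 51 were higher and 1 lower at 24 h than at 8 h.

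Fkbp5 was 1.21 ± 0.15 log2 units higher at 8 h than at 2 h (adjusted p = 0.00209) and 1.32 units lower at 24 h than at 8 h (-1.32 ± 0.15, adjusted p = 0.000114). Its mean was 8.09 in sham, 8.16 after 2 h, 9.37 after 8 h and 8.05 after 24 h. Plin4 changed in the same directions, with differences of 2.16 ± 0.31 from 2 h and -1.51 ± 0.31 at 24 h (adjusted p = 0.00537 and 0.00891). Its fall by 24 h was smaller than its rise of 2.30 over sham at 8 h. Ccl17 and Mfsd2a also passed in both comparisons, with 24 h minus 8 h differences of -1.08 ± 0.19 and -1.07 ± 0.14. Serpina3n and Slc10a6 were higher at 8 h than at 2 h by 2.00 ± 0.41 and 2.17 ± 0.46 (adjusted p = 0.0303 and 0.0323) and did not pass between 24 h and 8 h. The chemokines Ccl4 and Ccl3 did not pass in either, with 8 h minus 2 h differences of -0.01 ± 0.98 and -0.10 ± 0.90.

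Several vessel genes that lay below sham at 8 h were higher at 24 h. Flt1 had means of 9.16 in sham, 8.29 after 2 h, 7.71 after 8 h and 9.40 after 24 h, and its difference of 24 h minus 8 h was 1.69 ± 0.14 (adjusted p = 1.34e-06). That difference was 1.63 ± 0.16 for Cldn5 (adjusted p = 2.43e-05), 1.88 ± 0.24 for Slc38a5 (adjusted p = 0.000307) and 1.98 ± 0.14 for Vwf (adjusted p = 5.76e-07). Of the 18 tested endothelial genes, 12 were higher at 24 h than at 8 h and none lower, against 3.26% of all genes higher. Cx3cr1 was lower at 8 h than at 2 h (-0.60 ± 0.10, adjusted p = 0.0106) and higher at 24 h than at 8 h (1.09 ± 0.10, adjusted p = 1.22e-05). Of the 17 microglial genes, 4 were higher at 24 h than at 8 h and none lower.

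**Figure D5:**
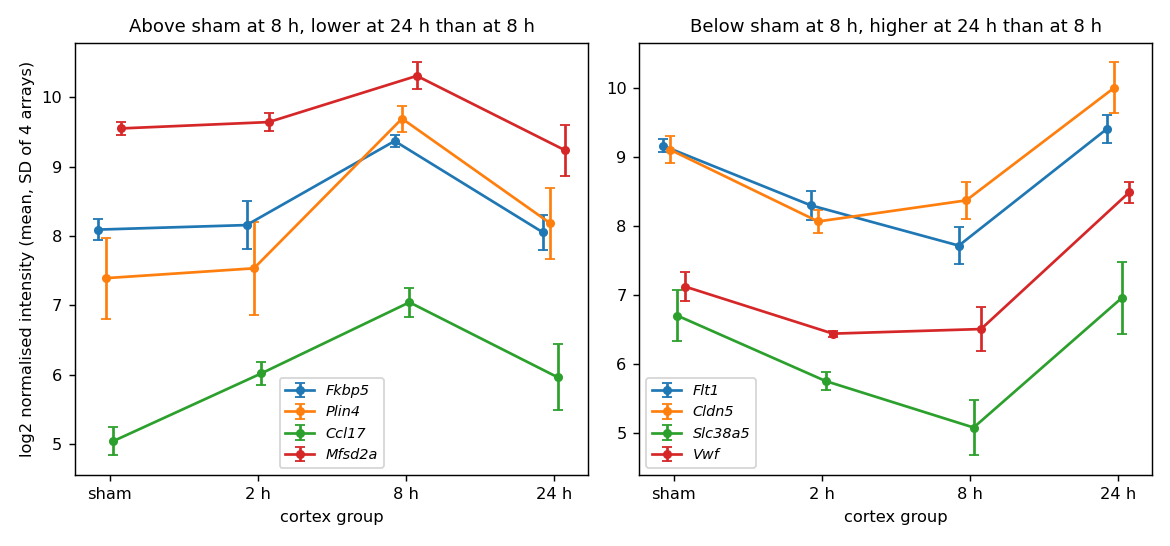
Log2 normalised intensity (y axis, mean and SD of 4 arrays) in cortex of sham mice and at 2, 8 and 24 h after reperfusion (x axis). On the left Fkbp5, Plin4, Ccl17 and Mfsd2a are above sham at 8 h and lower at 24 h than at 8 h. On the right Flt1, Cldn5, Slc38a5 and Vwf are below sham at 8 h and higher at 24 h than at 8 h.

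The difference of the cortical and the striatal response at 8 h was tested in a fit of all 32 arrays. It passed for 2 of 10080 genes (0.0198%, limma) with 481 at an unadjusted p under 0.05, and a p that misses the threshold does not show that cortex and striatum responded alike. Gart, an enzyme of purine synthesis, had 8.08, 8.50, 8.34 and 8.44 in the cortex at 8 h, against 7.61, 7.55, 7.64 and 7.61 in sham cortex, with no overlap. Its log2 difference was 0.74 ± 0.10 in the cortex (adjusted p = 0.000878) and 0.01 in the striatum (adjusted p = 0.946), and the responses differed by 0.72 ± 0.14 (adjusted p = 0.0479). That p was 0.0827 with slide as a block and 0.9999 with median scaling, and it missed the threshold in 14 of 16 fits with 1 array left out (0.00528 to 0.236), all but those without 8 h replicate 1 of the cortex or 8 h replicate 4 of the striatum. A second probe of Gart had a cortical difference of 0.43 and did not pass. The other gene was Hr, a co-repressor of thyroid hormone and vitamin D receptors. Hr had a log2 difference of 0.02 ± 0.14 in the cortex (adjusted p = 0.952) and of 1.25 ± 0.13 in the striatum (adjusted p = 2.34e-06). The cortical minus the striatal response was -1.23 ± 0.19 (adjusted p = 0.00375, and 0.00268 to 0.0201 with 1 array left out). Lcn2, Timp1, Fkbp5 and Plin4 rose in the striatum as well, where 7.03% of the 10080 genes passed, by 2.99, 4.04, 1.35 and 2.24 on the log2 scale (adjusted p = 0.0102, 0.000255, 7.67e-05 and 0.000267), and none of them passed the test of the difference between cortex and striatum.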

How the data were processed

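Messenger RNA was measured on Illumina MouseRef-8 bead arrays, 1 array per sample. The authors deposited probe signals as intensity values exported from BeadStudio 3.3.7, per the file headers without normalization, with a bead number for each value. A further deposited table for the cortex gives a gene signal and its detection value, a fraction that is 1 minus the detection p-value. The authors' deposited processed value table holds a ratio for each probe, centred near 1 over the arrays, by a normalization not given in the sources used here, and its log2 values served as an alternative. All fits let the expected spread of a gene vary with its mean level, which in that table is a mean ratio and not an intensity.

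Background was corrected by normexp with the background inferred from detection p-values (offset 16), arrays were quantile normalised over all 32, and log2 values were taken in limma 3.58.1 under R 4.3.3. Probe-level detection was read from the deposited gene-level table through a monotone curve of signal, with a largest deviation of 0.0083. A probe was kept when detected at p under 0.05 on all 4 arrays of at least 1 cortex group, and the brightest probe stood for a gene. Groups were compared with lmFit and eBayes over the 16 cortex arrays, or all 32 for the difference from striatum, with Benjamini-Hochberg adjustment.

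Of 25697 probes with values, 23876 were named through accessions, 728 through symbols and 709 through synonyms, and 384 stayed unnamed. For 837 probes no value was given. A further deposited table, with probe signals of the striatum, held 8 columns that matched no sample, and these were left out. Replicates are numbered as in the sample titles. The numbers differ from those in the descriptions for all 32 arrays, while the groups are the same for all 32.

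Gene lists, members and tests were chosen with earlier results of these data known. Genes named are the 15 largest rises and falls without overlap, up to 6 called and 2 uncalled members of each list with the largest changes, a fixed panel and up to 6 genes each way for the other comparisons. Hr, Aqp4, Mt1, Pecam1, Slc2a1, Tmem119, Tsc22d3, Sgk1, Per1, Ccl27a, Slc25a37, Sult1a1 and the genes of the promoter search fall outside this rule and were chosen after their values were seen. The number of arrays limits the precision. The fit was tested on simulated data. Alternatives changed the background, scaling, filter, table, weights, blocks and arrays. Results for a few genes are not reported here.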

Additional observations from a re-analysis of the deposited data

Results flagged for a closer look

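The ratio of the gap of 1 array to the range of its group of 4 was compared with Dixon's 95% critical value for 4 samples, over 264 groups of named genes. Chance passes about 1 in 20 groups, and 13 passed. At 8 h, replicate 4 was far below the other 3 arrays for Socs3 (0.921; level 7.46, others from 8.98), Sgk1 (0.989) and Mbp (0.856), and far above them for Scn2b (0.894). Replicate 1 stood low for Plin4 (0.83) and high for Psmb3 (0.8295), and replicate 2 stood high for Grik5 (0.83). In sham, replicate 3 stood high for Cldn5 (0.85), Pecam1 (0.874) and S100a8 (0.876) and low for Aldoc (0.938) and Tsc22d3 (0.897), and replicate 4 stood low for Ugt8a (0.869).

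The response at 8 h differed between cortex and striatum by 0.72 log2 units for Gart and by -1.23 for Hr, as cortical minus striatal response.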

How the results depend on the processing

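The count of 676 genes that differed between 8 h and sham cortex became 1810 with array weights (908 higher, 902 lower), 352 with median scaling (228 higher, 124 lower), 449 without the detection filter (204 lower) and 260 in the submitters' processed value table (149 higher, 111 lower), an alternative chosen after seeing the data. The causes were not tested, among them the larger number of tests without the filter. With 1 array left out it ran from 252 to 874, with 119 to 443 higher and 133 to 431 lower genes. With slide as a block it was 754. The count between 24 h and 8 h was 420 with median scaling and 333 to 1434 with 1 array left out, that between 8 h and 2 h was 23 to 75, and the 2 genes whose cortical and striatal responses differed became 1 (Hr, without Gart) with median scaling or slide as a block and 1 to 3 with 1 array left out. With replicate number as a block, 823 genes passed. Same-numbered 8 h and sham arrays had correlations of their deviations of 0.193, -0.136, 0.031 and 0.056. These values were set against no reference, so they do not show whether the numbers pair the samples. Of the 104 genes named in the text that passed, 41 passed in every alternative run, and 47 did not pass in the submitters' table, 27 without the filter, 24 with median scaling, 22 (of 94) in the deposited gene-level table, 9 each without background correction and with offset 50, 7 with slide as a block, 3 over the 8 compared arrays and 1 over every probe. Log2 differences shrank by more than 1.5 times for 43 genes in the deposited gene-level table, 15 in the submitters' table, 11 with offset 50 and 10 without background correction. Differences near 0 changed sign for Mt1 (-0.0411 with median scaling and -0.0405 in the submitters' table), Syt1 (0.0166) and Tmem119 (-0.0254) with array weights, Vegfa (0.0115) and Tbr1 (0.0007) with slide as a block, and with 1 array left out for Aqp4 (-0.1781 to 0.0311), Hr (-0.0526 to 0.1489), Pecam1 (-0.2551 to 0.0517), Rbfox3 (-0.1131 to 0.0374), Syt1 (-0.083 to 0.0434), Tbr1 (-0.1033 to 0.1076) and Tmem119 (-0.0629 to 0.1935). Median scaling moved the median of all genes from -0.0132 to -0.0018 log2 units. Genes detected on no array of a group have only bounds, and the fitted differences of those detected on some of its arrays rest on values near background.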
